A study of Mus musculus with 8 samples.

Results

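The matrix metalloproteinase genes Mmp8, Mmp9, Mmp10, Mmp12, Mmp13 and Mmp19 and the related gene Adam8 were examined in myeloid cells of the mouse conjunctiva. The 7 genes were chosen by name from the 754 genes of a NanoString nCounter panel for mouse myeloid innate immunity (V2), and each was read in all 8 samples. Female C57BL/6J mice, 10 weeks of age by the labels, either lived without stress (NS) or underwent 5 days of desiccating stress (DS5), with tear secretion blocked by scopolamine in their water and a draft of dry air from a fan. From each group, CD11b+ cells were divided by sorting into MHCII+ cells and, within the MHCII-CD64+ gate, monocytes (high surface Ly6C), Ly6C-inter cells (intermediate) and Ly6C-low cells. All sorts discarded cells that bound antibodies to natural killer cell, granulocyte, T cell and B cell antigens. The MHCII+ gate did not use CD64, so it could hold dendritic cells beside macrophages. A sample was a pool from 20 mice, both eyes of each, with 1 such pool per condition. No difference below therefore has a replicate or a p-value, and fewer expressing cells in a pool and less RNA per cell cannot be told apart.

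Matrix metalloproteinases are zinc enzymes that are made as inactive precursors, become active when the propeptide is removed and are held in check by tissue inhibitors (TIMPs). Between them they cut collagens, elastin, basement membrane proteins and many cytokines and receptors. Their genes are commonly induced by IL-1 and TNF through AP-1 (Jun and Fos dimers), NF-kappaB and C/EBP-beta. At the ocular surface, MMP-9 in tears is a known marker of dry eye, and MMP-12 is best known as the elastase of macrophages. ADAM8 is a membrane-bound metalloproteinase of leukocytes that sheds other surface proteins.

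In RefSeq's mouse annotation the genes Mmp13, Mmp12, Mmp10 and Mmp8 lie in the metalloproteinase cluster of chromosome 9, where Mmp13 and Mmp12 are neighbours and Mmp10 and Mmp8 are neighbours. Mmp9 is on chromosome 2, Mmp19 on chromosome 10 and Adam8 on chromosome 7. The promoters of these neighbours, Mmp12 and Mmp13, are shown because of their differences between DS5 and NS in MHCII+ cells. They were the 2 members that passed the threshold there with a count above background, in opposite directions. Each window runs 5′ to 3′ on the plus strand from 250 bases before to 50 bases after an annotated transcription start (RefSeq, GRCm38.p6), and capitals mark the AP-1 word, TGAGTCA or its reverse complement TGACTCA.
Mmp12, second of its annotated starts, chr9:7347124-7347423: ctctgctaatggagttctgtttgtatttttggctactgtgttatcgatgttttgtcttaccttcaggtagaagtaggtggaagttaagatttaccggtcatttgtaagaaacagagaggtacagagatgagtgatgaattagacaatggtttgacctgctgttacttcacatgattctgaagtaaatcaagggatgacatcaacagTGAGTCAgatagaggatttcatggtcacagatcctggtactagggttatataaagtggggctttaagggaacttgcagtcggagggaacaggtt
Mmp13, chr9:7272264-7272563: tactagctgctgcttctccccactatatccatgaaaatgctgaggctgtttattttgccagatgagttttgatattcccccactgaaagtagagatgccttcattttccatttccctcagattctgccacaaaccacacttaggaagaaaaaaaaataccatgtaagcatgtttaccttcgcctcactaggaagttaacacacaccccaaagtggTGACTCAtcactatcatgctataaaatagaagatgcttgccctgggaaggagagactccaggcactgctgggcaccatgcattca
The word begins 44 bases before the Mmp12 start and 35 bases before the Mmp13 start. It was found in 3 of the 6 windows listed for 5 of the genes, the other being that of Mmp10 at 63 bases before the start, and in 5.2% of all 32851 promoter windows of the same length. The first Mmp12 start and the windows of Mmp8 and Adam8 do not hold these letters, and Mmp9 and Mmp19 had no window here.

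The samples differed widely in depth. The MHCII+ samples had total counts over the 754 genes of 39677 (NS) and 30335 (DS5), while the MHCII- samples had 2728 to 14201. Background was set in each sample as the mean + 2 SD of 8 negative control probes, which came to 11.2 to 23.0 counts, and between 24 genes (NS monocytes) and 291 genes (NS MHCII+ cells) lay above it. The MHC class II gene H2-Aa had 3419 and 2635 counts in the MHCII+ samples and 12 to 22 in the others. Fcgr1, which encodes CD64, was not above background in any of the 6 samples sorted as CD64+, with 3 to 9 counts. In the deeper MHCII+ samples, which were not sorted on CD64, it was above background with 33 (NS) and 22 (DS5) counts. The part of depth in this difference was not tested. Ly6c1 had 583 counts in DS5 Ly6C-inter cells and at most 16 in any other sample, the monocytes included. Ly6c2, the other Ly6c gene looked for, was not measured. The DS5 Ly6C-inter sample thus stood apart in Ly6c1, whose level there went against the order of the labels. No second sample of that condition exists in the data with which its values could be compared.

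The 7 genes together summed to 168 counts in MHCII+ cells of NS mice, 121 in those of DS5 mice and 21 to 57 in the MHCII- samples. Of their 56 values, 10 (17.9%) were above background, against 15.7% of all 6032 values on the panel. In MHCII+ cells, the deepest samples, lay 8 of these 10. Over all genes, 948 values were above background, 291 of them in NS and 213 in DS5 MHCII+ cells. The lowest value in the deposited table is 1, which may stand for a smaller number, and 15 of the 56 values were 1. Levels are given below as raw counts and, where samples are compared, as counts per 10000 counts over the 754 genes.

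Mmp12, the macrophage elastase, had 44 counts in MHCII+ cells after DS, 17 in MHCII+ cells of NS mice and 5 in DS5 monocytes. The other samples had 1 count each except DS5 Ly6C-inter cells, which had 2. Only the MHCII+ samples were above background, and these were also the highest raw counts. Per 10000 counts the level was 14.5 (95% interval 10.5 to 19.5) in DS5 MHCII+ cells and 4.29 (2.50 to 6.86) in NS MHCII+ cells. DS5 monocytes came between these at 12.7, with a wide interval of 4.13 to 29.7 that covers both. All intervals here are exact counting intervals (Poisson for a level, Clopper-Pearson for a ratio or a share) and cover counting error only.

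Mmp13 and Mmp8 encode collagenases that cleave fibrillar collagen, and Mmp8 is known as the neutrophil collagenase. Among MHCII+ cells Mmp13 had 18 counts in NS, its only value above background, and 3 after DS. The MHCII- samples had 1 to 2 counts of Mmp13 in NS and 2 to 6 in DS5. Mmp8 had 1 count in every NS sample, 3 in DS5 MHCII+ cells, 4 in DS5 monocytes and 1 in both other DS5 samples, and was not above background anywhere. Mmp10, which encodes stromelysin-2, was likewise at background throughout, with 1 to 5 counts and the highest value in NS monocytes. For Mmp8, Mmp10, Mmp12 and Mmp13 no pair of neighbours in the order of levels per 10000 differed beyond counting error.

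Mmp9, gelatinase B, was above background with 41 counts in MHCII+ cells and 20 in Ly6C-inter cells of NS mice. In the other samples it had 13 (NS Ly6C-low cells), 1 (NS monocytes), 14 (DS5 MHCII+ cells), 3 (DS5 monocytes), 10 (DS5 Ly6C-inter cells) and 11 counts (DS5 Ly6C-low cells), none above background. The order turned when counts were set against the total of the sample. Per 10000 counts Mmp9 was 33.6 (20.5 to 51.9) in NS Ly6C-inter cells, 27.1 in DS5 Ly6C-low cells, 22.4 in NS Ly6C-low cells and 10.3 (7.42 to 14.0) in NS MHCII+ cells. The step from NS Ly6C-low to NS MHCII+ cells, a log2 ratio of 1.12 (0.09 to 2.05), was the only one between neighbours in this order that exceeded counting error.

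Mmp19, whose product cuts basement membrane proteins, was above background in MHCII+ cells of both groups, with 38 counts in NS and 24 after DS. It had 9 counts in NS monocytes and 2 to 5 in the other MHCII- samples. Per 10000 counts NS monocytes stood highest at 33.0 (15.1 to 62.6), a log2 difference of 1.78 (0.55 to 2.86) from NS MHCII+ cells, although those 9 counts were below background. Adam8 was the most broadly measured member, above background in 3 samples. In NS it had 51 counts in MHCII+ cells, 34 in Ly6C-low cells, 10 in Ly6C-inter cells and 5 in monocytes. After DS these were 32, 11, 5 and 2. Per 10000 counts Adam8 was highest in NS Ly6C-low cells at 58.6 (40.6 to 81.9). DS5 Ly6C-low cells came next at 27.1 (13.5 to 48.5), a log2 difference of 1.11 (0.10 to 2.24), and none of the 6 later steps in the order exceeded counting error.

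**Figure D1:**
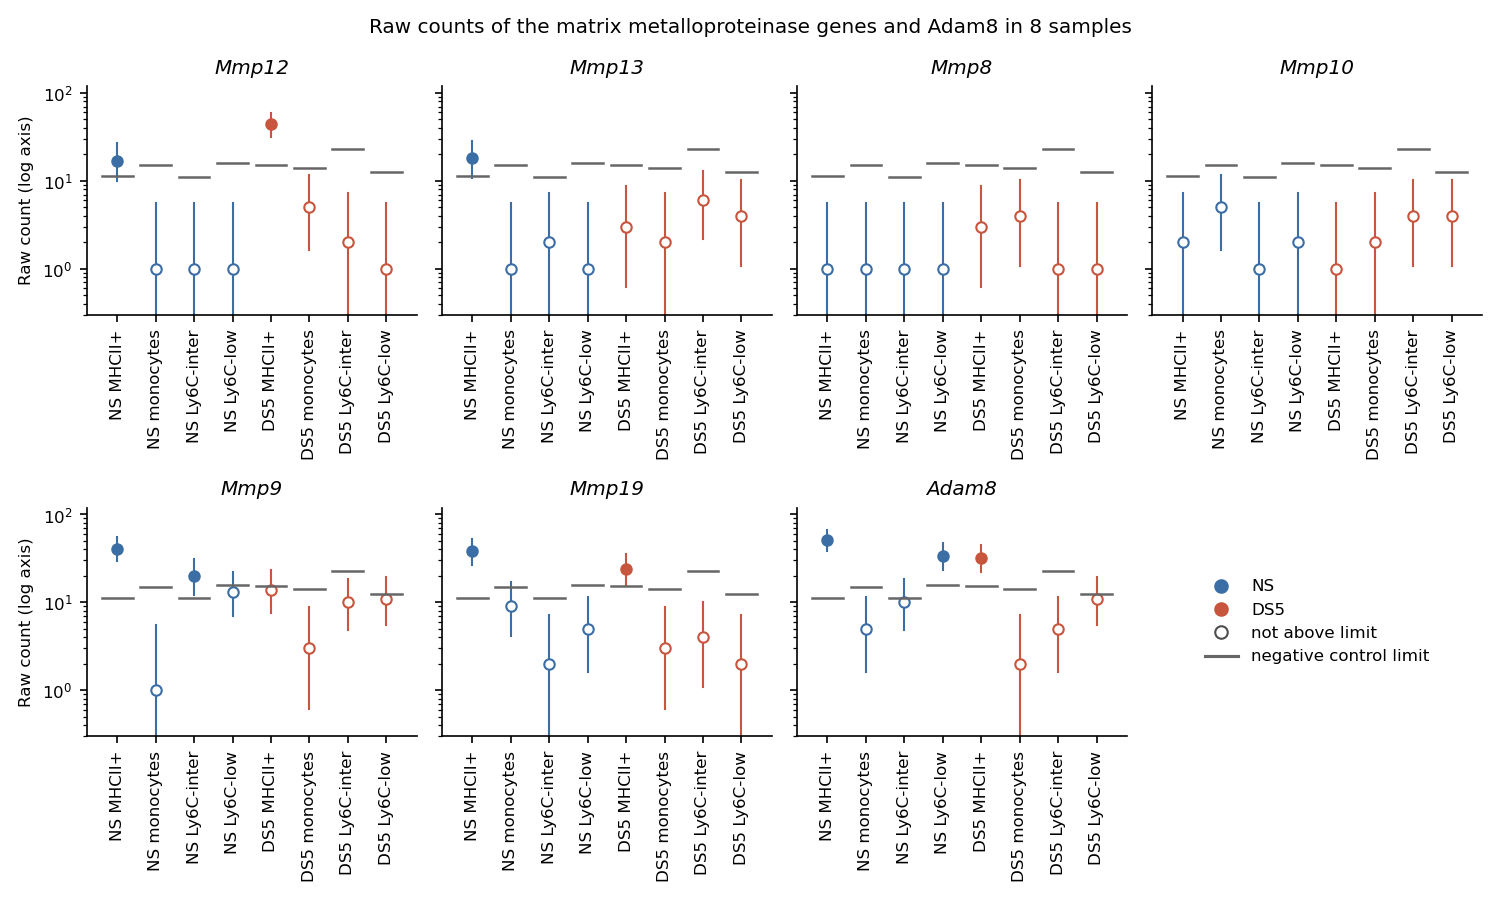
Raw count (log axis) of each of the 7 genes in the 8 samples, with 95% counting intervals, in blue for NS and red for DS5. Filled points are above the negative control limit of their sample (grey bars), and 8 of the 10 filled points are in MHCII+ cells, the deepest samples.

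DS5 and NS were compared within each population as the log2 ratio of DS5 over NS counts per 10000. A gene was called when the ratio was at least 1.5 in either direction, the threshold of the study, and the higher of the 2 raw counts was above background. In MHCII+ cells 8 of the 754 genes (1.06%) were called, 1 higher and 7 lower after DS, and 2 of these were Mmp12 and Mmp13. Mmp12 was the only gene on the panel called higher, with 17 counts in NS and 44 in DS5, a 3.38-fold difference and a log2 ratio of 1.76 (0.92 to 2.66). Mmp13 was lower in DS5, with 18 counts in NS and 3 in DS5, a log2 ratio of -2.20 (-4.60 to -0.42). The DS5 count of Mmp13 was below background, and with both samples raised to their background limits its ratio was 0.16. Relative to the median gene of this comparison, which stood at 0.14, the ratios were 1.61 for Mmp12 and -2.34 for Mmp13. Without scaling the ratio of Mmp12 was 1.37, in the same direction and under the threshold of 1.5.

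The other members had smaller ratios or rested on few counts in MHCII+ cells. Mmp9 had a log2 ratio of -1.16 (-2.15 to -0.26), whose interval excluded 0 but which was under the threshold, and its DS5 count of 14 was just below the limit of 15.3. Mmp19 had -0.28 (-1.08 to 0.50) and Adam8 -0.28 (-0.97 to 0.38), so a change of either gene was not detectable at this depth. Mmp8 and Mmp10 rested on 1 to 3 counts in these samples. The median of the 7 genes was -0.28, beside 0.14 for all genes.

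In the MHCII- populations 1 member was called. Among Ly6C-inter cells 52 genes (6.9%) were called, 22 higher and 30 lower in DS5, and Mmp9 was among the lower ones. It had 20 counts in NS and 10 in DS5, a log2 ratio of -2.26 (-3.51 to -1.09). Adam8 had the same ratio (-4.15 to -0.57) from 10 and 5 counts, both at background. The total of the DS5 Ly6C-inter sample enters both values, and without scaling either ratio was -1.00. Of all genes in this population, 38 were called higher and 1 lower without scaling. The call of Mmp9 was kept under 5 of 9 changes of scaling or low values. In Ly6C-low cells 9 genes (1.19%) were called and none was a member. Adam8 there had 34 counts in NS and 11 in DS5, a log2 ratio of -1.11 (-2.24 to -0.10), and was past the threshold without scaling, at -1.63. In monocytes 4 genes (0.531%) were called and none was a member. Mmp12 had 1 and 5 counts there, a log2 ratio of 1.80 (-1.36 to 7.36), and Mmp19 had 9 and 3, a log2 ratio of -2.11 (-4.63 to -0.11), all at background.

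**Figure D2:**
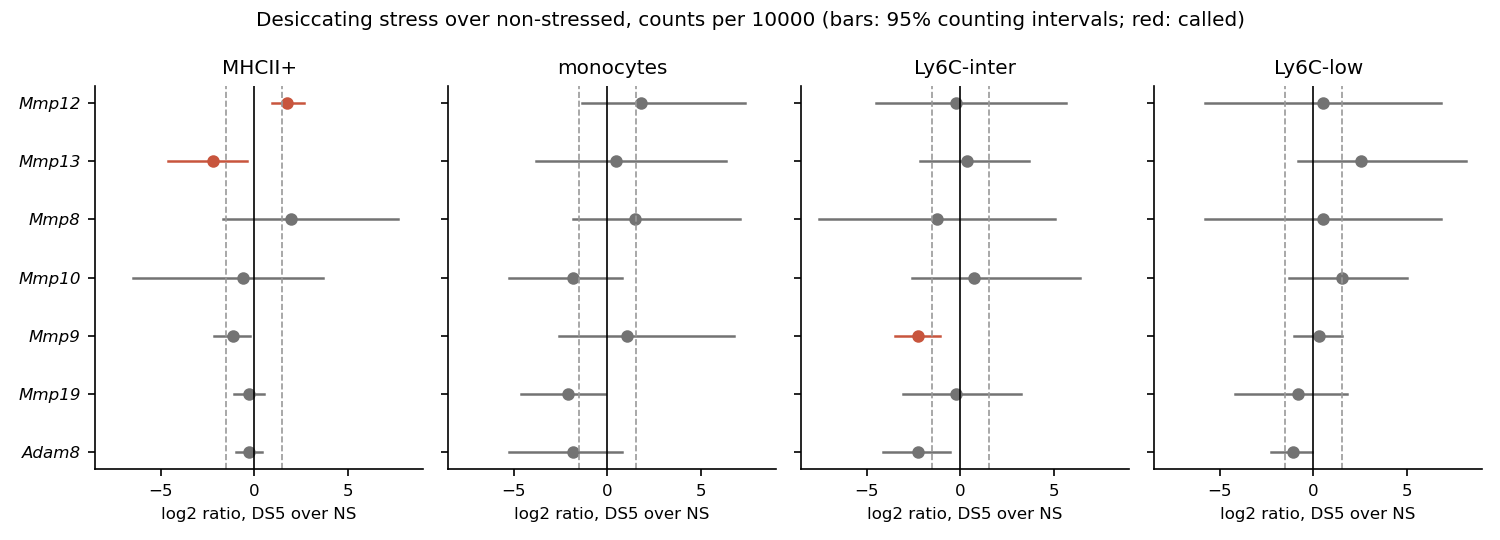
Log2 ratio of DS5 over NS in counts per 10000 for the 7 genes in each population, with 95% counting intervals, dashed lines at the threshold of 1.5 and called genes in red. Mmp12 (1.76) and Mmp13 (-2.20) in MHCII+ cells and Mmp9 (-2.26) in Ly6C-inter cells were called.

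Because a scaling factor moves all genes of a sample together, the 7 genes were also set against each other, which needs no scaling. Probes differ in efficiency, so a share is compared between samples and not between genes. In MHCII+ cells the share of Mmp12 among their summed counts was 10.1% (6.01 to 15.7) in NS and 36.4% (27.8 to 45.6) in DS5, and these intervals do not overlap. Mmp9 had 24.4% in NS and 11.6% in DS5, and Mmp13 10.7% and 2.48%, with the DS5 counts of both below background. The shares of Mmp19 (22.6% and 19.8%) and Adam8 (30.4% and 26.4%) overlapped widely. Among the 3 genes above background in both MHCII+ samples, Mmp12, Mmp19 and Adam8, the 3 pairs were compared by the ratio of their DS5 to NS ratios, and the interval excluded 1 in the 2 pairs that held Mmp12. Mmp12 gained 4.12-fold (1.91 to 9.01) over Adam8 and 4.10-fold (1.80 to 9.41) over Mmp19. Mmp19 against Adam8 gave 1.01 (0.48 to 2.09).

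**Figure D3:**
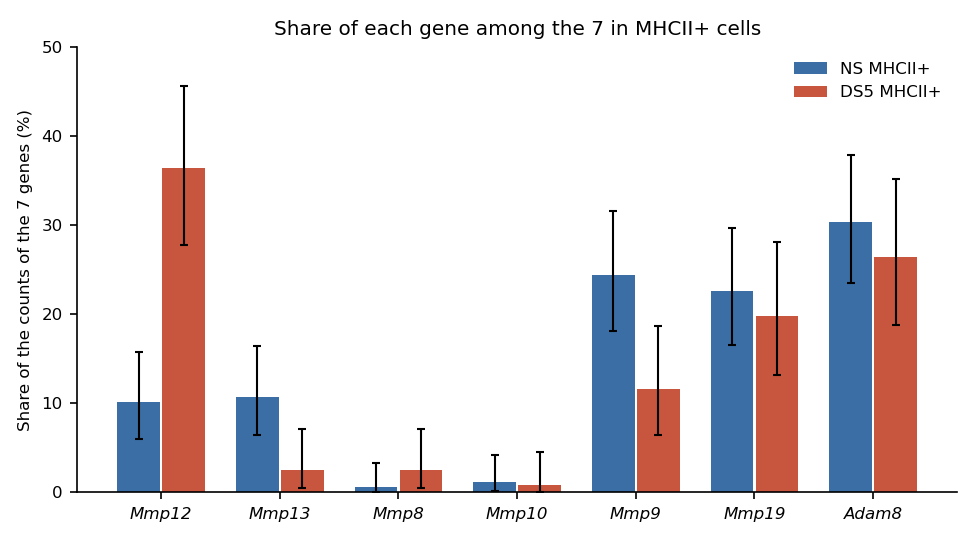
Share of each gene in the summed counts of the 7 genes in MHCII+ cells, NS in blue (168 counts) and DS5 in red (121 counts), with 95% binomial intervals. The share of Mmp12 was 10.1% in NS and 36.4% in DS5.

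MHCII+ cells were then compared with the 3 MHCII- populations of the same group at the study's threshold of 2 on the log2 scale. Of the 42 member values 3 (7.14%) were called, against 3.67% of all gene values. In these comparisons the direction depends on the scaling, since the MHCII+ samples held most of the counts. The median ratio of all genes in NS MHCII+ cells over NS monocytes was -2.28 per 10000 counts and 1.58 without scaling. It was -0.73 when scaled to all measured reference genes. Scaled to Ppia and Rpl19, the reference genes above background in every sample, it was -2.24. Per 10000 counts none of the 7 genes was called in MHCII+ cells over monocytes. There 16 genes (2.12%) were called in NS and 24 (3.18%) in DS5. Without scaling 5 members were called higher in NS and 3 in DS5, among 267 and 181 genes called higher. With reference gene scaling Mmp9 was called in NS (3.04, from 41 against 1 count) and Adam8 in DS5 (2.34, from 32 against 2). The monocyte counts were below background. Per 10000 counts the intervals of these ratios, -1.06 to 6.83 and -0.92 to 4.16, included 0. Only 2 of the 20 measured reference genes were above background in NS monocytes, and 2 in DS5 monocytes. With the total taken without the 10 highest genes, Mmp9 was called in NS (2.22). The study, with its own normalization, named matrix metalloproteinases among inflammatory genes that increased from monocytes to macrophages.

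In NS Ly6C-low cells Adam8 was called as higher than in MHCII+ cells, with 58.6 against 12.9 per 10000 counts and a log2 ratio of MHCII+ over Ly6C-low of -2.19 (-2.84 to -1.52), among 34 called genes (4.51%). This direction held per 10000 counts and with Ppia and Rpl19 scaling (-2.78). It turned to 0.58 without scaling and 0.60 with positive controls. The ratio was under the threshold at -1.56 with reference genes and -1.58 with the total taken without the 10 highest genes. The call was thus kept under 5 of 9 changes of scaling or low values. The other members of that comparison were not called. Free of scaling, Adam8 made up 59.6% (45.8 to 72.4) of the counts of the 7 genes in NS Ly6C-low cells, where the other 6 were at background, and 30.4% (23.5 to 37.9) in NS MHCII+ cells. In NS MHCII+ over Ly6C-inter cells 23 genes (3.05%) were called and no member was. Mmp9 had -1.70 (-2.51 to -0.85) there and made up 54.1% (36.9 to 70.5) of the counts of the 7 genes in NS Ly6C-inter cells, where no other member was above background.

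After DS, Mmp12 was called as higher in MHCII+ cells than in Ly6C-inter cells, with 44 against 2 counts and a log2 ratio of 3.36 (1.43 to 6.46), among 45 called genes (5.97%). Over DS5 Ly6C-low cells, which had 1 count, the ratio was 2.56 (0.00 to 7.89), among 24 called genes (3.18%). Both comparisons share the DS5 MHCII+ sample with the DS5 to NS comparison above, so they are not independent of it. The lower counts were below background, and with all counts raised to their limits the ratios were -0.16 and -1.09. The ratio over Ly6C-low cells was also under the threshold with Ppia and Rpl19 scaling (1.91) and after subtraction of the negative control mean (1.62), and the call was kept under 6 of 9 changes. No member was above background in DS5 Ly6C-inter or DS5 Ly6C-low cells. Mmp12, Mmp19 and Adam8, above background in DS5 MHCII+ cells, were set against each other as 3 pairs in each comparison. Over Ly6C-inter cells no interval excluded 1. Over Ly6C-low cells the interval excluded 1 only for Mmp12 against Adam8, a ratio of ratios of 15.1 (1.97 to 665). That value rested on 1 count of Mmp12 in Ly6C-low cells. Mmp9 stood lower in DS5 MHCII+ than in DS5 Ly6C-low cells, at -2.56 (-3.80 to -1.27), but neither count was above background.

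**Figure D4:**
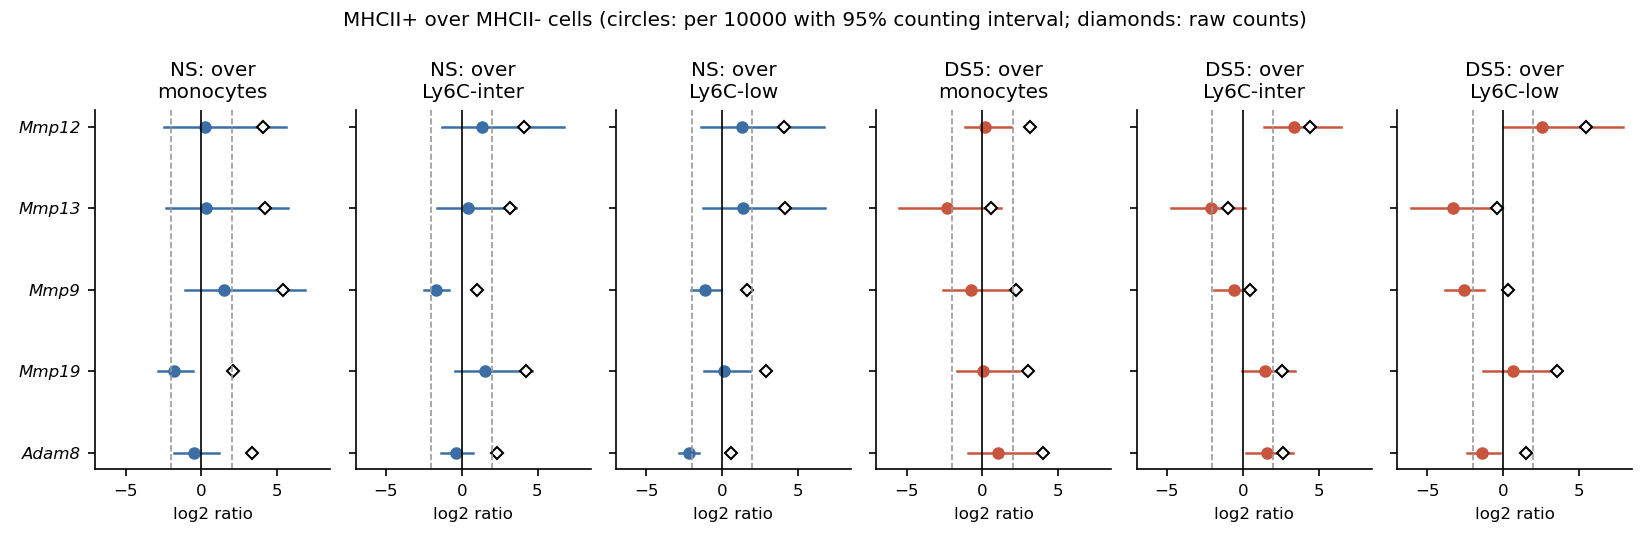
Log2 ratio of MHCII+ over each MHCII- population for the 5 genes above background in at least 1 MHCII+ sample, as counts per 10000 with 95% counting intervals (circles) and as raw counts (open diamonds), with dashed lines at the threshold of 2. For Adam8 in NS over Ly6C-low cells the circle is at -2.19 and the diamond at 0.58.

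Other genes of the metalloproteinase pathway were read from lists of proteinases, inhibitors, inducing cytokines, transcription factors and substrates. In MHCII+ cells none of the measured genes of these lists (9 of 23 listed, 5 of 13, 8 of 9, 7 of 14 and 13 of 20) was called between NS and DS5, and their median log2 ratios were 0.28, 0.31, 0.48, 0.17 and 0.08 beside 0.14 for all genes. The cytokine genes Il1b (319 and 290 counts in NS and DS5), Tnf (28 and 33) and Il6 (47 and 62) and the AP-1 genes Jun (132 and 78) and Fosb (254 and 179) were above background in both samples. So were the lysosomal proteinase genes Ctsd (261 and 223) and Ctss (283 and 205). Timp3 was the only TIMP gene on the panel and had 1 to 9 counts, not above background in any sample.

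In Ly6C-inter cells, where Mmp9 was called lower in DS5, 1 proteinase gene, 1 inhibitor gene and 1 cytokine gene were also called lower and 1 substrate gene higher. Plau, the urokinase that activates plasminogen, had 15 counts in NS and 9 in DS5 (log2 ratio -1.99). Serpinb2, an inhibitor of urokinase, had 29 and 11 (-2.65), and Il1b had 25 and 11 (-2.44). Il1r2, a decoy receptor for IL-1, had 5 and 51 (2.10). The total of the DS5 Ly6C-inter sample enters all of these ratios. Of all genes, 30 were called lower in DS5 when scaled to the sample total. That number was 1 without scaling, 3 with positive controls, 4 with Ppia and Rpl19 and 19 with reference genes. Genes called higher numbered 22 when scaled to the total, and 38, 32, 31 and 23 under these changes. The calls of Plau, Serpinb2 and Il1b thus depend on the scaling. The list medians lay between -0.77 (transcription factors) and -0.20 (proteinases), against -0.26 for all genes.

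In Ly6C-low cells Cebpb, which encodes C/EBP-beta, had 106 counts in NS and 26 in DS5, a log2 ratio of -1.51 (-2.19 to -0.88), and was the only gene of these lists called. Serpinb2 had its highest count in the sample where Adam8 per 10000 counts was highest, with 87 counts in NS Ly6C-low cells against 22 after DS, and had 7 (NS) and 9 (DS5) in MHCII+ cells. Its log2 ratio of NS MHCII+ over NS Ly6C-low cells was -6.41. No gene of the lists was called in monocytes.

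Of the MHCII+ over MHCII- comparisons, the list genes called most often were Fn1, the gene of the matrix protein fibronectin, and Serpinb2. Fn1 was higher in MHCII+ cells in 4 of the 6 comparisons. It had 246 (NS) and 199 (DS5) counts in MHCII+ cells against 1 to 8 in Ly6C-inter and Ly6C-low cells. Over monocytes Fn1 was not called, and there it was above background with 20 (NS) and 29 (DS5) counts. Of the inducing cytokines, Il6 was called higher in MHCII+ cells over NS Ly6C-inter cells (2.82) and DS5 Ly6C-low cells (3.05). Il1a was called higher over NS Ly6C-inter cells (2.02, -0.58 to 7.37) and Il1b over DS5 Ly6C-inter cells (3.62). The lower count was 1 for both Il6 ratios and for Il1a, whose interval included 0. Icam1, which encodes a leukocyte adhesion molecule, was called higher over NS monocytes (2.65, from 91 against 1 count). Il1r2 was called lower over DS5 Ly6C-inter cells (-3.77). Ctsl was lower in MHCII+ than in Ly6C-inter cells in NS (16 and 12 counts, -2.32) and DS5 (13 and 25, -2.04). Tnf (-2.18, over NS Ly6C-inter cells), Osm (-2.08) and Cebpb (-2.47, both over NS Ly6C-low cells) were called lower per 10000 counts although their raw counts were higher in MHCII+ cells.

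Markers of other cells that can carry these enzymes were read beside the members. Of 10 neutrophil genes measured, 0 to 2 were above background in a sample, and their summed level was 70.7 to 103 per 10000 in NS MHCII- samples, 79.6 to 112 in DS5 MHCII- samples, and in MHCII+ cells 28.2 (NS) and 28.7 (DS5). In MHCII+ cells most of that sum was Fcgr3 (86 and 66 counts), which macrophages also express, and the other 9 genes came to 6.55 and 6.92 per 10000, none above background. In the MHCII- samples these 9 genes came to 27.6 to 80.6 per 10000, from 16 to 89 counts in all, and at most 1 of them was above background in a sample. Ly6g, Mpo, Camp, Cxcr2 and S100a8 were not above background in any sample. S100a9 had 16 (NS) and 55 (DS5) counts in Ly6C-inter cells, from total counts of 5948 and 14201, and was not called between them. Of 14 monocyte and macrophage genes, 2 were called higher in DS5 than in NS Ly6C-inter cells, Ly6c1 (log2 ratio 4.93) and Itgam (1.68). Another 2 were called lower, Adgre1 (-1.77) and Cd14 (-1.63). Mmp9 was called lower in that population, and the part of S100a9 or of these markers in that result was not tested. In MHCII+ cells S100a9 had 1 count in both groups. Of 7 dendritic cell genes, 3 were above background in NS MHCII+ cells (Itgax 12, Ccr7 15 and Irf8 14 counts) and 0 after DS, with summed levels of 16.6 and 16.5 per 10000. Of 14 monocyte and macrophage genes, H2-Aa, H2-Ab1, H2-Eb1 and Cd74, which dendritic cells also express, gave 92.9% (NS) and 92.5% (DS5) of the list's counts in MHCII+ cells. Of the other 10 genes, 8 and 7 were above background in these samples, with 225 and 239 per 10000 against 259 to 619 in the MHCII- samples. The level of 619 was that of DS5 Ly6C-inter cells, where Ly6c1 gave 583 of the 879 counts. Mertk, a receptor of resident macrophages, had 15 counts in NS and 1 in DS5 MHCII+ cells and was called lower, beside Mmp13. A share of macrophages and dendritic cells that differed between the pools was not tested. None of 2 lymphocyte, 2 epithelial and 5 fibroblast and vessel genes measured was above background in any sample.

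For Adam8, the only member above background in at least 3 samples, the genes with the most similar levels across the 8 samples were Ccl6 (Pearson r = 0.93), Nfil3 (r = 0.91) and Syk (r = 0.87), among 142 genes above background in as many samples. Ccl6 encodes a chemokine of myeloid cells, Nfil3 a transcription factor and Syk a tyrosine kinase of immune receptor signalling. In NS and after DS, Ccl6 had 112 and 102 counts in MHCII+ cells and 40 and 18 in Ly6C-low cells. These r values describe log2 counts per 10000 in 8 samples, which share depth and total across genes.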

How the data were processed

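The authors sorted the cells, hybridized their total RNA with the probes of a NanoString nCounter panel and counted reporter barcodes by imaging, with no amplification or sequencing. They deposited raw counts per probe for 8 pooled samples, as whole numbers of at least 1 for 754 genes, 8 negative and 6 positive control probes. Their normalization is not part of these values and its settings are not given in the sources used here. No genome build is named in the table, and gene coordinates are left out apart from those of RefSeq promoter windows (GRCm38.p6).

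Counts were scaled to 10000 over the 754 genes. Log2 ratios have exact Clopper-Pearson and levels exact Poisson 95% intervals. Called genes passed a log2 ratio of 2 (MHCII+ over MHCII-, 6 comparisons) or 1.5 (DS5 over NS, 4 comparisons), with the higher count above the mean + 2 SD of the negative controls. No test was run. Each condition had 1 sample, and an additive fit of population and stress over the 8 samples, which would ask for a stress effect common to the populations, was not made. The 7 genes, the thresholds and the lists were chosen with earlier results of these data known. Named genes are the members, for members above background in 3 or more samples the 3 genes with the highest Pearson r, and called genes of the lists. Other genes, such as cytokine, marker and TIMP genes that were not called, were named after their values were seen. Of the 12 lists, that of 20 measured reference genes served for scaling only, and 2 of these genes were above background in every sample. Alternatives were other scalings, floors, thresholds and background rules. The code was tested on simulated data. Intervals came from scipy 1.17.1, tables from pandas 2.3.3 and numpy 2.4.6 and plots from matplotlib 3.10.9, all in Python 3.11.15.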

Additional observations from a re-analysis of the deposited data

Results flagged for a closer look

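Mmp13 and Mmp10 had DS5 over NS ratios of opposite sign in different populations, and the difference between populations was not tested. The log2 ratio of Mmp13 was -2.20 in MHCII+ cells (18 and 3 counts in NS and DS5) and 2.52 in Ly6C-low cells (1 and 4 counts, both at background). The ratio of Mmp10 was -1.85 in monocytes (5 and 2 counts) and 1.52 in Ly6C-low cells (2 and 4 counts), with every count at background.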

How the results depend on the processing

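The number of member values called in MHCII+ over MHCII- cells was 3 of 42 (7.14%, against 3.67% of all gene values). It was 20 (47.6%) without scaling or with positive control scaling, against 24.6% and 26.1% of all gene values. It was 9 with reference gene scaling (21.4% against 7.34%), 5 with the total taken without the 10 highest genes (11.9% against 5.28%), 12 with a threshold of 1 (28.6% against 9.97%), 16 without the background limit (38.1% against 43.6%) and 1 with counts raised to that limit (2.38% against 2.25%). For DS5 over NS it was 3 of 28 (10.7% against 2.42%), and 11 without the limit (39.3% against 20.1%), 1 with counts raised to it (3.57% against 1.03%) and 5 after subtracting the negative control mean (17.9% against 5.01%). Adam8 in NS MHCII+ over NS Ly6C-low cells reversed to 0.58 (0.585) without scaling and 0.60 (0.596) with positive controls. With counts raised to the limit, Mmp12 in DS5 MHCII+ cells reversed to -0.16 over Ly6C-inter cells and -1.09 over Ly6C-low cells, and Mmp13 in DS5 over NS MHCII+ cells to 0.16. In these 3 ratios the limit exceeded the lower count and took its place. Mmp12 in DS5 over NS MHCII+ cells was called under 7 of 9 changes of scaling or low values, with ratios of 1.37 to 2.02. Mmp13 was called under 8 of 9, and Mmp9 in Ly6C-inter cells under 5 of 9 (-4.53 to -1.00). Pairing the DS5 and NS samples by population in a fit was not run.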
